A study of Mus musculus with 2 samples.

Results

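The natriuretic peptide system was described in embryonic mouse heart through 8 genes: the peptide genes Nppa, Nppb and Nppc, the protease genes Corin and Furin, and the receptor genes Npr1, Npr2 and Npr3. The genes were listed by name with no filter on a measured value, though earlier results of these data were known when they were chosen. They were found by matching gene identifiers, without version, to GENCODE M21 names. All 8 were found in both libraries, among 43346 rows with mouse gene identifiers, and the transcript tables hold 33 transcripts of them. Total RNA sequencing had been carried out on 2 pools of hearts of strain B6NCrl at embryonic day 16.5, each pool holding hearts of male and female embryos. For replicate 2 the hearts of 41 embryos were pooled, while no number is stated for replicate 1. An input of 10 ng of RNA above 200 nt was used for each library, together with ERCC spike-in RNAs. The labels give 1 group with no treatment or second genotype named, separate biosamples and a shared donor identifier, so the comparisons are between genes, between transcripts and between these 2 libraries. No p-value was computed.

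Natriuretic peptides are hormones that lower blood volume and pressure. They bind guanylyl cyclase receptors, which raise cyclic GMP in the target cell. ANP, from Nppa, and BNP, from Nppb, are made by heart muscle cells, while CNP, from Nppc, is known from endothelium, cartilage and brain. Each is made as a precursor that a protease cuts, and all share a ring closed by a disulfide bond. Before birth Nppa is a classic marker of the working muscle of the forming chambers, in ventricle as well as atrium, and after birth it becomes largely atrial.

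The coding bases of the ring, the part the family shares, are shown for Nppb and Nppc, the cardiac and the non-cardiac gene set side by side. They were read from GENCODE M21 coding sequences on GRCm38, 5′ to 3′ on the coding strand, and capitals mark codons whose amino acid is the same in both peptides.
Nppb ring, chr4:147986464-147986514, plus strand: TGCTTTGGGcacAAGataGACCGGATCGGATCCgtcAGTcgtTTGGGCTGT
Nppc ring, chr1:86669667-86669717, minus strand: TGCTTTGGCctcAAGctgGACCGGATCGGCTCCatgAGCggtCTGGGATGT
In both genes the ring lies in exon 2 of 3 and spans 17 codons, with a cysteine codon at either end. Of the 17 residues, 13 were the same in both peptides, and of the 51 bases, 40 were the same. The precursors had 152 residues for Nppa, 121 for Nppb and 126 for Nppc. After the ring came 6 further residues in the Nppb precursor and 0 in that of Nppc, which ends with the closing cysteine.

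The stretches upstream of the ring are shown because the proteases act there. Capitals mark codons of the pattern arginine, any residue, any residue, arginine, the minimal motif of furin, with 12 bases of flank on each side.
Nppa: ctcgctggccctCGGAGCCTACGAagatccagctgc
Nppb: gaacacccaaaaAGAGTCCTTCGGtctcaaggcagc
Nppc: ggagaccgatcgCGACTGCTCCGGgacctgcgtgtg
The motif occurred once before the ring in Nppa and in Nppb, and at 2 overlapping places in Nppc, of which the first is printed. It ended 3 residues before the ring in Nppa, 22 in Nppb and 36 in Nppc. As background, corin cuts the ANP precursor after the first arginine of the stretch shown for Nppa, and furin cuts the BNP and CNP precursors after the last arginine of theirs. A match is a description of the sequence, and no cut was measured here.

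Nppa (ENSMUSG00000041616, chr4:148000722-148002079, plus strand) had 75727 estimated counts and 3701 TPM in replicate 1, and 120037 counts and 5284 TPM in replicate 2. TPM is the relative abundance of a transcript, corrected for its length and scaled to a fixed total. The mean was 4492 TPM ± 1119.6 (SD, n = 2), which ranked 14 among all 21474 protein-coding genes, with rank 18 in replicate 1 and 13 in replicate 2. The replicates were further apart for Nppa than for any other of the 8 genes, and the authors' credibility intervals, 3596 to 3648 TPM and 5152 to 5211 TPM, did not overlap. The deposited TPM lies just above its own interval in both libraries. The nearest protein-coding genes in level over the 2 libraries were Tpm1, at 4230 TPM, and Tnnc1, at 4060 TPM, both thin-filament genes, and the mitochondrial gene mt-Cytb. None was a close match. In replicates 1 and 2 Tpm1 had 4241 and 4219 TPM, Tnnc1 4061 and 4059 TPM, and mt-Cytb 4974 and 5334 TPM.

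Nppb (ENSMUSG00000029019, chr4:147985788-147987205, plus strand) had 2421 and 3163 counts, and 133 TPM in replicate 1 against 156 TPM in replicate 2. Its mean of 145 TPM ± 16.6 (SD, n = 2) ranked 905 among protein-coding genes. Replicate 2 was the higher library for both cardiac peptides, and neither gene's intervals overlapped. Within replicate 1 Nppa stood 27.8-fold above Nppb, and within replicate 2 it stood 33.8-fold above. Genes nearest to Nppb in level were Hnrnpc, Pa2g4 and Rpl22l1.

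Nppc (ENSMUSG00000026241, chr1:86666291-86670571, minus strand) had only 25 and 31 counts. Its level was 0.99 TPM in replicate 1 and 1.11 TPM in replicate 2, or 1.05 ± 0.085 (SD, n = 2), rank 12917, and the intervals of 0.636 to 1.41 and 0.741 to 1.51 TPM overlapped broadly. A gene of the length of Nppc with no count could still hold up to 3 counts, or 0.119 and 0.107 TPM in replicates 1 and 2, so Nppc was above that floor in both. Nppb was 138-fold higher than Nppc, with log2 ratios of 7.07 and 7.14 in the 2 libraries. In bulk tissue, few cells with much RNA and many cells with little cannot be told apart, here or for the other genes.

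Corin and Furin encode the proteases. Corin is a membrane protease of heart muscle cells that activates the ANP precursor, and furin is a convertase of the secretory pathway found in most tissues. Corin (ENSMUSG00000005220, chr5:72300025-72504473, minus strand) had 4730 and 5701 counts, and 38.4 TPM in replicate 1 against 42.1 TPM in replicate 2, with a mean of 40.3 ± 2.61 (SD, n = 2) and rank 3273. Furin (ENSMUSG00000030530, chr7:80388585-80405436, minus strand) had 1344 and 1085 counts, and 11.9 TPM in replicate 1 against 8.79 TPM in replicate 2, with a mean of 10.4 ± 2.22 and rank 7785. The heart protease was thus the more abundant transcript in both libraries. The log2 ratio of Furin over Corin was −1.69 in replicate 1 and −2.26 in replicate 2, a mean of −1.97 ± 0.41, so Corin was 3.93-fold higher, with intervals apart in each library. Against its substrate, Corin was far lower: Nppa was 96.3-fold above Corin in replicate 1 and 125-fold in replicate 2. Nppb stood only 3.58-fold above Corin.

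The receptors were all at low levels. Npr1 encodes the guanylyl cyclase for ANP and BNP, Npr2 that for CNP, and Npr3 the clearance receptor, which has no cyclase domain and takes up all 3 peptides. Npr1 (ENSMUSG00000027931, chr3:90450591-90465866, minus strand) had 872 and 783 counts, and 11.0 TPM in replicate 1 against 9.07 TPM in replicate 2, with a mean of 10.0 ± 1.35 (SD, n = 2) and rank 7897. Npr2 (ENSMUSG00000028469, chr4:43631935-43651244, plus strand) had 574 and 506 counts, and 8.14 and 7.27 TPM, with a mean of 7.71 ± 0.615 and rank 8746. Npr3 (ENSMUSG00000022206, chr15:11839896-11907287, minus strand) had 831 and 984 counts, and 4.56 and 4.86 TPM, with a mean of 4.71 ± 0.212 and rank 10137. Both cyclase receptors were lower in replicate 2 and the clearance receptor was higher there, but the whole-gene intervals of each receptor overlapped between the libraries.

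By whole-gene TPM the receptor order was Npr1, Npr2, Npr3 in both libraries. Npr2 over Npr1 gave log2 ratios of −0.43 and −0.32, a mean of −0.38 ± 0.08, and the intervals overlapped, so these neighbours were not told apart. Npr3 was lower than Npr1 by log2 ratios of −1.27 and −0.90, a mean of −1.08 ± 0.26, and lower than Npr2 by −0.84 and −0.58, a mean of −0.71 ± 0.18, with intervals apart in both libraries. The order of the last pair turned when only the full-length coding transcript of each gene was taken, a comparison chosen after the values were seen. Npr3-201 then stood above Npr2-201 by log2 ratios of 0.34 and 0.59, a mean of 0.46 ± 0.18, with intervals apart in both libraries. Npr3 has only 1 measured transcript, so its value stayed that of the whole gene. Only the values of Npr1 and Npr2 could fall, and the turn comes from the Npr2 transcripts left out. On the same scale Npr2-201 stood below Npr1-201 by −1.06 and −0.91, with a mean of −0.99 ± 0.11, and Npr3-201 below Npr1-201 by −0.73 and −0.32. Npr1 had the highest value on either scale, though it was not told apart from Npr2 by whole-gene TPM, and the places of Npr2 and Npr3 depended on which transcripts were counted.

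**Figure D1:**
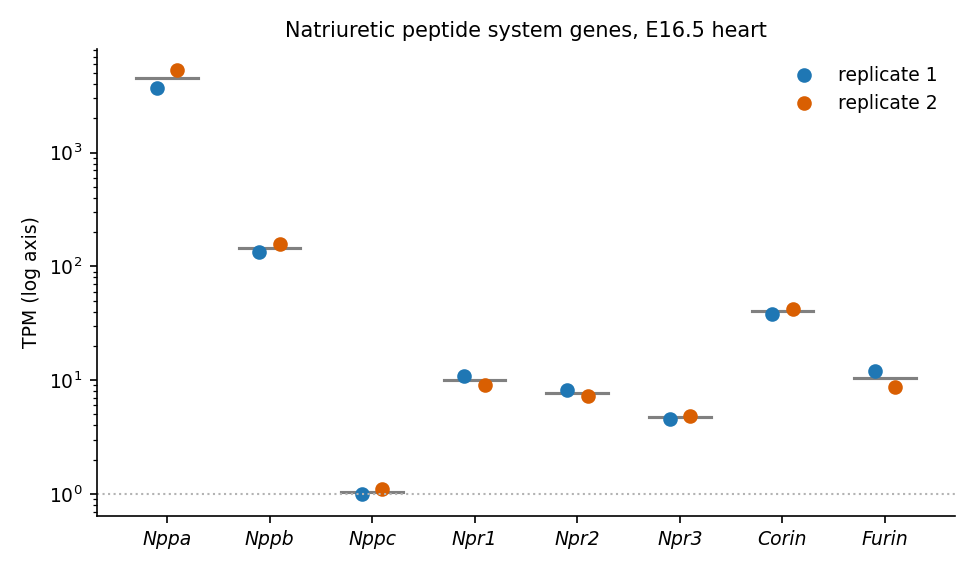
TPM of the 8 genes on a log axis, with 1 point for each library, a grey bar at the mean of the 2 and a dotted line at 1 TPM. Nppa at 3701 and 5284 TPM stands above Nppb at 133 and 156, then Corin at 38.4 and 42.1, the other proteases and receptors between 4.56 and 11.9, and Nppc at 0.99 and 1.11.

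Of the 8 genes, 7 reached 1 TPM in both libraries, against 59.1% of 21474 protein-coding genes, and Nppc missed it by its 0.99 TPM in replicate 1. The call of Nppc turns on the setting: all 8 passed with posterior mean TPM, with TPM rescaled to mouse genes, at 0.5 TPM or without replicate 1. Ordered by mean TPM the genes ran Nppa, Nppb, Corin, Furin, Npr1, Npr2, Npr3, Nppc. Within this order Furin and Npr1 did not differ beyond their spread, with log2 ratios of 0.12 in replicate 1 and −0.05 in replicate 2, and neither did Npr1 and Npr2. Genes whose levels were nearest to each of the others were Coa7, Ccdc90b and Yars for Corin, Nr2f2, Scarf1 and Selenoo for Furin, Tldc1, Ocrl and Phf8 for Npr1, Irf2bp2, B4galt6 and Casc4 for Npr2, Mcc, Unkl and Prr11 for Npr3, and Gabra3, Clec12a and Frmpd1 for Nppc. Nearness here is the distance of log2(TPM + 0.1) over only 2 libraries and describes level alone.

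Nppa and Nppb lie next to each other on chromosome 4, both on the plus strand, with 13516 bases between the end of Nppb and the start of Nppa. The flanking genes named here had lower levels than either. Clcn6, a chloride transporter gene on the minus strand whose 3′ end lies 2179 bases from that of Nppa, had 5.88 TPM in replicate 1 and 5.39 TPM in replicate 2. The pseudogene Gm13207, which lies within Clcn6, had 4 and 9 counts. Upstream of Nppb, the collagen-modifying enzyme gene Plod1 had 52.3 and 46.5 TPM and 2510039O18Rik had 11.9 and 9.60 TPM. All 3 of these protein-coding neighbours had a lower TPM in replicate 2, where both peptide genes were higher. Their log2 ratios of counts scaled to library size were −0.12 for Clcn6, −0.14 for Plod1 and −0.26 for 2510039O18Rik. Each was smaller in size than the SD of 0.41 over protein-coding genes averaging 1 TPM or more. Only 47.0% of such genes were higher in replicate 2, and summed TPM of mouse genes fell from 967517 to 933462. The lower TPM of these 3 neighbours therefore does not set the locus apart.

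The antisense gene Gm13054 (chr4:148001091-148004014, minus strand) overlaps Nppa over 989 bases, of which 532 are exonic in both genes. It had 372 counts and 19.3 TPM in replicate 1, and 664 counts and 31.0 TPM in replicate 2. Its log2 ratio of replicate 2 over replicate 1 was 0.73, beside 0.56 for Nppa, and Nppa stood 192-fold above it in replicate 1 and 170-fold in replicate 2. The use of strand in counting is not given in the sources used here, so reads from Nppa and from Gm13054 cannot be told apart in the shared exons. Antisense genes over the other members were near the floor. Gm16048 over Npr1 had 0.18 and 0.08 TPM, and Gm20647 over Corin had 0.05 and 0.13 TPM. Gm12473 over Npr2 was higher, at 2.25 and 0.91 TPM.

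The neighbours of the other members within 50 kb ranged widely. Beside Npr1, S100a1, a calcium-binding protein of heart muscle on the same strand, had 294 and 276 TPM, and Ilf2, Snapin, Chtop, S100a13 and Ints3 had from 12.5 to 82.2 TPM in single libraries, each above Npr1 in both. Beside Npr2, Spag8 on the opposite strand ends 90 bases away with 1.01 TPM in either library, and Hint2, a mitochondrial protein gene 2982 bases away on the minus strand, had 155 and 137 TPM. The processed pseudogene Gm12481 on the plus strand was listed at 927 and 1118 TPM, a value that reads from its parent gene could share. Corin lies 1249 bases from Atp10d (plus strand, 5.27 and 4.05 TPM) and 8827 bases from Nfxl1 (minus strand, 6.83 and 5.76 TPM), both below Corin. Furin lies 638 bases from Fes, a tyrosine kinase gene on the same strand with 8.38 and 7.20 TPM, and Nppc lies 33236 bases from Dis3l2, an RNA-degrading enzyme gene on the plus strand with 14.2 and 13.2 TPM.

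**Figure D2:**
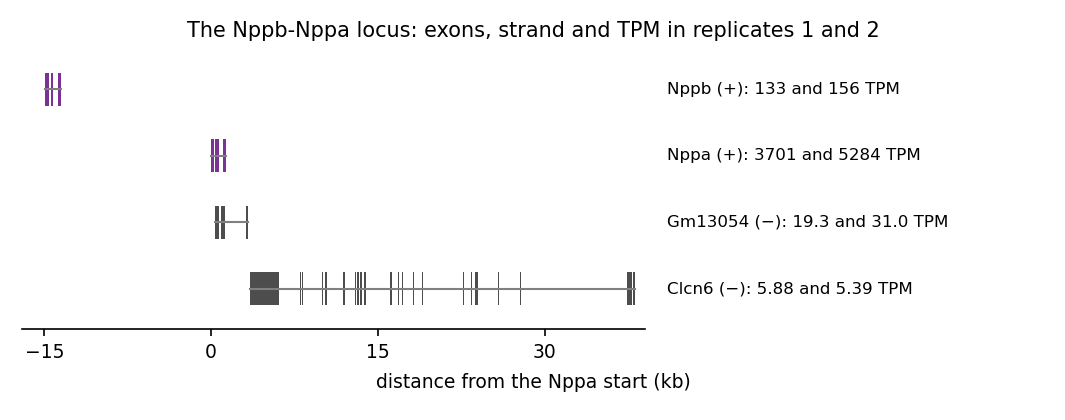
Exons (boxes) of Nppb, Nppa, the antisense gene Gm13054 and Clcn6 by distance in kb from the Nppa start, with the strand and the TPM of replicates 1 and 2 at the right. The peptide genes at 133 and 156 TPM and at 3701 and 5284 TPM stand beside Clcn6 at 5.88 and 5.39 TPM.

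Promoter sequence is shown for the cardiac peptide genes, which were the highest members and both higher in replicate 2. The bases come from RefSeq on GRCm38.p6, and capitals mark matches, on either strand, to letters known for heart transcription factors: TCACACCT for T-box factors, TNAAGTG for NKX2-5, AGATAA or TGATAA for GATA factors, CATTCC for TEAD factors (the M-CAT box) and the CArG box for SRF. Capitals also mark TATAAA, the TATA box, which is not particular to heart factors.
Nppa, chr4:148000472-148000721, plus strand: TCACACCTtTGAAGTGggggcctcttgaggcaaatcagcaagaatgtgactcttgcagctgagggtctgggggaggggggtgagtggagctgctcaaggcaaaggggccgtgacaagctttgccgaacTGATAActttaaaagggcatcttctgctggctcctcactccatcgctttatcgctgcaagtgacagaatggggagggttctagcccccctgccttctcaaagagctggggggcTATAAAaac
Nppb, chr4:147985792-147985821, plus strand: gcaGGAATGcagcTGATAAatcagAGATAA
In the 250 bases before the Nppa start, the T-box letters lay 250 to 243 bases and the NKX2-5 letters 241 to 235 bases upstream, with a single base between them. A GATA match lay 122 to 117 bases upstream and the TATA letters 9 to 4 bases upstream. The printed 30 bases of Nppb hold an M-CAT match on the reverse strand, 105 to 100 bases before the RefSeq start, and 2 GATA matches, 95 to 90 and 84 to 79 bases before it. A TATA match lay 31 to 26 bases upstream. The GENCODE transcript of Nppb starts 112 bases before the RefSeq start, so these matches fall inside that transcript. Nppc had only a TATA match, 29 to 24 bases upstream, and Furin an NKX2-5 match 206 to 200 and a TATA match 23 to 18 bases upstream.

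Some of these letters are common. Over 32851 promoters of 250 bases, searched on both strands, 1.12% held the T-box letters, 10.1% the NKX2-5 letters, 9.99% AGATAA, 7.94% TGATAA, 12.6% CATTCC, 1.47% the CArG box and 12.4% TATAAA. Among the 8 genes, matches to any of these letters were found for Nppa, Nppb, Nppc and Furin only. None was a CArG box, which says only that these letters were not in the windows searched. Whether Npr1, Npr2, Npr3 and Corin each had a window was not checked. Binding was not measured, and a match is not a site.

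The 4 genes with several transcripts differed in how their TPM was divided. Nppa, Nppb, Nppc and Npr3 have 1 transcript each in the tables, although GENCODE M21 lists 5 for Npr3. Of the 33 transcripts, 9 had 0 counts in both libraries. The share of TPM on transcripts annotated as protein-coding was 99.2% ± 0.29 (SD, n = 2) for Corin, 86.7% ± 1.39 for Furin, 78.0% ± 10.1 for Npr2 and 67.8% ± 1.36 for Npr1.

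Corin was split between 2 full-length coding transcripts that differ at their start. Corin-202 begins with an exon of 103 bases (chr5:72504371-72504473) and Corin-201 with one of 327 bases (chr5:72503882-72504208), 162 bases further into the gene. Each has 22 exons, 20 of them identical, and the coding sequence of Corin-201 is 198 bases, or 66 codons, longer. Corin-202 held 55.7% of the gene's TPM in replicate 1 and 68.1% in replicate 2, and Corin-201 held 43.4% and 30.7%. Corin-202 was the larger share in both pools. Its level was 21.4 TPM (interval 17.3 to 23.3) in replicate 1 and 28.7 TPM (25.5 to 30.4) in replicate 2, and Corin-201 had 16.7 TPM (14.0 to 19.6) and 12.9 TPM (10.4 to 14.9). The intervals of the 2 transcripts overlapped in replicate 1 and were apart in replicate 2, and the log2 ratio of Corin-202 over Corin-201 was 0.36 and 1.15, a mean of 0.76 ± 0.56. The size of the difference was therefore not settled by 2 libraries.

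Furin transcripts with 3 different first exons share 1 coding length of 2379 bases. Furin-201, whose first exon lies at chr7:80405319-80405431, held 68.6% and 72.4% of the gene's TPM. Furin-203, which starts 2556 bases further in at chr7:80402530-80402762, held 17.7% and 13.3%, and Furin-202 held 1.39% in replicate 1 and was at 0 counts in replicate 2. The transcript Furin-205, annotated with a retained intron, held 10.0% and 9.41%. The upstream first exon was thus the main one in both libraries, although the intervals of Furin-203 were wide, at 1.03 to 4.00 TPM and 0.430 to 3.04 TPM.

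For Npr1 the full-length transcript Npr1-201, of 22 exons and 3171 coding bases, held 68.8% and 66.8% of the TPM. Npr1-205, a transcript of 949 bases with a retained intron, held 22.8% and 23.5%, with 56.9 and 53.6 counts. The division of Npr1 was nearly the same in both pools. The level of Npr1-201 was 7.55 TPM (interval 6.74 to 7.87) in replicate 1 and 6.06 TPM (5.43 to 6.40) in replicate 2. Its intervals were thus apart, unlike those of the whole gene. Npr2 was less even. Its full-length transcript Npr2-201, of 22 exons, held 44.4% and 44.5%. The shorter Npr2-205, which starts inside the gene and carries 1837 coding bases against 3141, held 40.8% in replicate 1 and 26.5% in replicate 2, with 178 and 114 counts and overlapping intervals. The non-coding Npr2-210, of 347 bases, held 0% in replicate 1 and 19.8% in replicate 2, which rests on 0 and 10.6 counts. The whole-gene TPM of Npr2 in replicate 2 thus includes 1.44 TPM from about 10.6 reads.

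**Figure D3:**
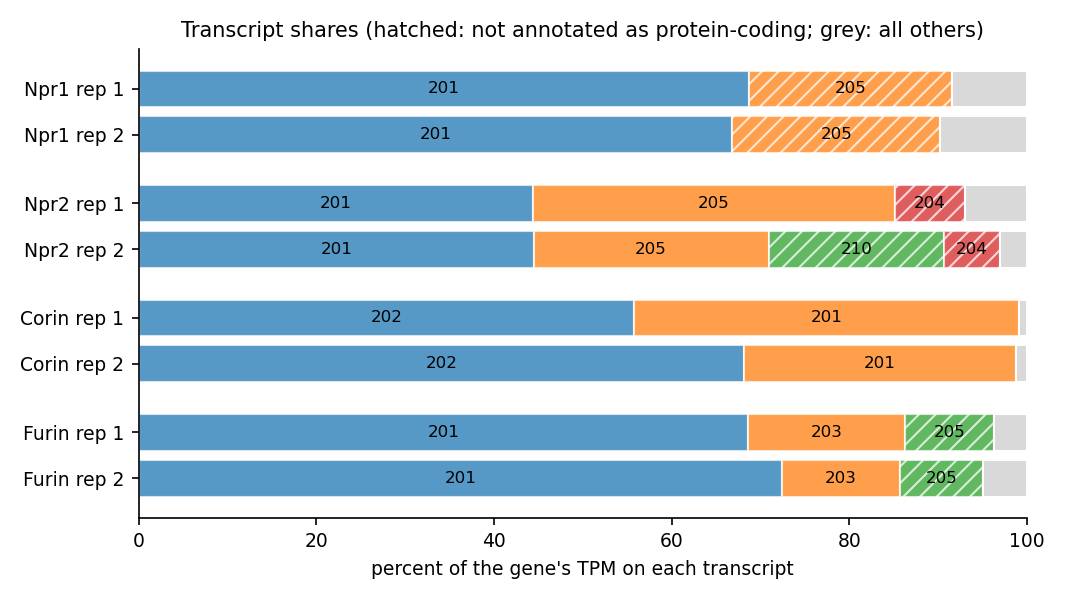
Percent of each gene's TPM on its transcripts in each library for Npr1, Npr2, Corin and Furin, with hatching for transcripts not annotated as protein-coding and grey for all others. Corin-202 takes 55.7% and 68.1%, and Npr2-210 takes 0% and 19.8%, while the shares of Npr1 and Furin stay within 5 percentage points.

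Between the pools, none of the 8 genes was past 1.5-fold, beside 7.14% of the 12987 protein-coding genes whose mean reached 1 TPM. Ratios are replicate 2 over replicate 1 of counts scaled to library size by TMM. Nppa came nearest, at 1.47-fold higher in replicate 2, a log2 ratio of 0.56 that exceeded that of 92.4% of those genes in size. Furin followed at −0.41, or 1.33-fold lower, larger than 88.3%. The others were Nppb at 0.28, Nppc at 0.20, Corin at 0.16, Npr3 at 0.14, Npr1 at −0.26 and Npr2 at −0.29. The SD of the log2 ratio over all those genes was 0.41, so that of Nppa lay outside 1 SD, that of Furin was about equal to it and the other 6 lay inside.

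All 3 peptide genes, Corin and Npr3 had the higher value in replicate 2, and both cyclase receptors and Furin the lower. That is 5 of 8 higher, where 47.0% of all those genes were higher. Credibility intervals did not overlap between the libraries for 4 of the 8, namely Nppa, Nppb, Corin and Furin, against 30.0% of all those genes. Intervals cover counting and assignment error only and are narrow for genes with many counts, so this count follows depth as well as difference.

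Markers of other cell types moved between the pools as well. Summed TPM of the 11 atrial markers was 4788 in replicate 1 and 6348 in replicate 2, with 7 of 11 higher in replicate 2 and a median log2 ratio of 0.24. The 6 ventricular markers summed to 16864 and 13426 TPM, with 1 of 6 higher in replicate 2 and a median of −0.29. The 7 general cardiomyocyte markers summed to 26604 and 26590 TPM, and their median was −0.00447. The median over all genes was −0.01. Of the 7 cardiomyocyte markers, 3 were higher in replicate 2 and 4 in replicate 1. Their log2 ratios ran from −0.25 for Ttn to 0.26 for Myh6, which had 818 and 959 TPM. Myh6 is a myosin gene that is mainly atrial before birth, and it was singled out after its values were seen. Smooth muscle and pericyte markers summed to 1387 and 1161 TPM, with 0 of 7 higher in replicate 2 and a median of −0.25, and fibroblast markers to 2353 and 2054 TPM, with 2 of 7 higher and a median of −0.30. Npr1, Npr2 and Furin were also lower in replicate 2, but so were 5 of 6 ventricular and 5 of 7 endothelial markers. Over all protein-coding genes averaging 1 TPM or more, only 47.0% were higher there. The medians of the endothelial, endocardial, epicardial, macrophage, chondrocyte and trabecular lists lay between −0.11 and 0.19. No marker in any of the 14 lists was at 0 counts in both libraries. Lung epithelial markers summed to 959.9 and 103 TPM, with all 5 higher in replicate 1. Thymocyte markers summed to 75.8 and 195 TPM and skeletal muscle markers to 32.5 and 69.0 TPM, with all 5 and all 6 higher in replicate 2. The part of any of these lists in the differences of the 8 genes was not tested.

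Single markers give the values behind these sums. Myl7, the atrial myosin light chain, had 2899 TPM in replicate 1 and 4102 TPM in replicate 2, so Nppa was 1.28-fold above it in replicate 1 and 1.29-fold in replicate 2. The log2 ratio of Nppa over Myl7 moved by 0.01 between the pools, and that over Sln, the atrial calcium pump regulator sarcolipin, moved by −0.10. The other atrial markers did not all give such small values: over all 11 the movement ran from −0.13 to 0.95 with a median of 0.38, and 8 of 11 were above 0. Against Myl2, the ventricular myosin light chain, which had 8176 and 6344 TPM, the ratio of Nppa moved by 0.88. Against Tnnt2, the troponin T of all heart muscle, it moved by 0.44. For Nppb, the ratio to Myl7 moved by −0.27, to Myl2 by 0.60 and to Tnnt2 by 0.16. The ratio of Corin to Tnnt2 moved by 0.06. These ratios were chosen after the values were seen.

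**Figure D4:**
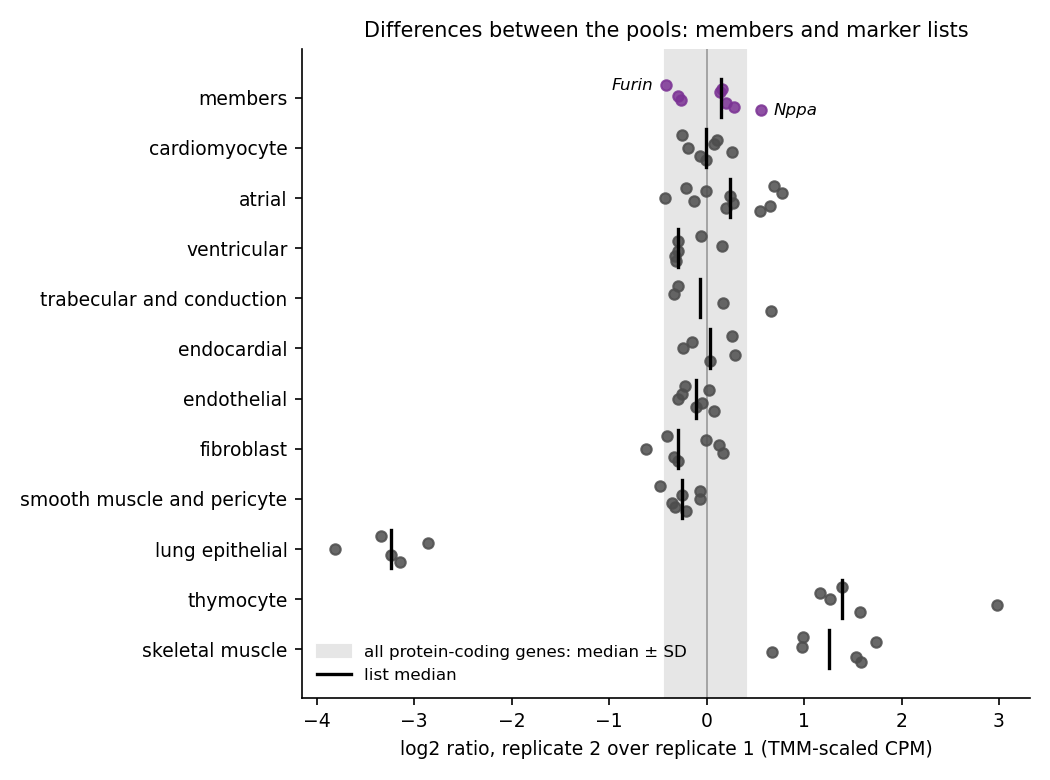
Log2 ratio of replicate 2 over replicate 1 (TMM-scaled CPM, counts relative to library size) for the 8 genes and for markers with a mean of at least 1 TPM in 11 lists, with 1 point for each gene, a black bar at each list's median and grey for the median ± SD of all protein-coding genes. Nppa at 0.56 lies beyond the grey band as do 4 atrial markers on the same side, Furin at −0.41 lies near its lower edge, and lung, thymocyte and skeletal muscle markers lie far outside it.

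Genes that act around the system were taken from 6 lists of 60 genes, of which 59 were measured. Of these, 40 had at least 1 TPM in both libraries, where 59.1% of all protein-coding genes did. Among the 42 with a mean of at least 1 TPM, 5 were past 1.5-fold between the pools, beside 7.14% of all protein-coding genes at that level. Of the 5, Pde5a, Pcsk6, Tbx2 and Tbx3 were higher in replicate 1 and 1 was higher in replicate 2. These 4 were named after their values were seen.

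Downstream of the receptors, the cyclic GMP effectors and substrates had 6 of 8 genes at 1 TPM in both libraries and a median of 16.7 TPM. The highest were Pln, the calcium pump inhibitor phospholamban, at 789.5 TPM ± 42.8 (SD, n = 2), the actin regulator Vasp at 69.4 ± 3.63 and the myosin phosphatase subunit Ppp1r12a at 41.7 ± 2.91. The kinase that cyclic GMP activates was represented by Prkg1, at 5.98 and 5.64 TPM, while Prkg2 had 0.22 and 0.21 TPM. None of the list was past 1.5-fold in scaled counts. By TPM Mrvi1 differed more, at 4.57 in replicate 1 and 2.53 in replicate 2, a log2 ratio of −0.83 beside −0.32 by scaled counts. Its intervals overlapped.

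Phosphodiesterases break down cyclic GMP and so end the signal. Pde2a was not analysed here, and of the other 11 genes, 7 had at least 1 TPM in both libraries. The list median was 2.16 TPM. Pde1a led at 17.4 TPM ± 1.68 (SD, n = 2), followed by Pde1c at 7.11 ± 0.467 and Pde3a at 6.45 ± 1.21. Pde5a, which is specific for cyclic GMP, had 2.64 TPM in replicate 1 and 1.65 TPM in replicate 2, with a log2 ratio of −0.63 and intervals apart. Summed over the list, TPM was 48.2 in replicate 1 and 43.3 in replicate 2.

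Among other guanylyl cyclases, the subunits of the soluble enzyme, which nitric oxide activates, were the ones expressed. Gucy1b1 had 39.2 and 38.4 TPM and Gucy1a1 had 36.5 and 33.9 TPM, each above Npr1 and Npr2 in both libraries. The third in the list, Gucy1a2, had 0.48 and 0.57 TPM. The membrane cyclases Gucy2c, Gucy2d and Gucy2e had from 1 to 11 counts in each library, and Gucy2f and Gucy2g had 0 counts in both, which allows up to 0.014 and 0.031 TPM in replicate 1. Npr1 and Npr2 were therefore the only membrane cyclases of those measured that reached 1 TPM.

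Of the other proprotein convertases, which share the work of precursor cutting, 4 of 8 had at least 1 TPM in both libraries and the median was 1.33 TPM. Mbtps1, a protease of the Golgi, had 53.1 and 49.0 TPM, Pcsk7 had 13.9 and 11.8 TPM, and Pcsk5 had 7.91 and 6.37 TPM. Furin, at 11.9 and 8.79 TPM, thus lay below Pcsk7 in mean level. The neuroendocrine convertases Pcsk1 and Pcsk2 had 5 to 12 counts in each library. Pcsk6, reported to activate corin, had 1.58 TPM in replicate 1 and 0.89 TPM in replicate 2, with a log2 ratio of −0.75 and overlapping intervals.

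Enzymes that degrade the peptides were present at unequal levels. Ide, the insulin-degrading enzyme, which also cuts ANP, had 67.3 and 67.4 TPM. Ece1, the endothelin-converting enzyme, had 47.8 and 54.9 TPM and Dpp4, which trims BNP, had 17.3 and 18.9 TPM. Mme, or neprilysin, the enzyme best known for clearing these peptides, had only 2.51 and 2.46 TPM. The meprin genes split by pool: Mep1a had 1 count in replicate 1 and 70 in replicate 2, and Mep1b had 0 and 46. Meprins are known from kidney and intestine, and both stayed under 1 TPM. Ostn, whose peptide osteocrin binds the clearance receptor, had 3 and 1 counts, at or below the floor of 3.

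All 17 transcription factors listed for the Nppa and Nppb promoters reached 1 TPM in each library, and their median was 20.7 TPM. The highest were Nkx2-5 at 104 TPM ± 1.11 (SD, n = 2), Mef2a at 90.8 ± 2.84 and Gata4 at 74.8 ± 11.5. Tbx5, an activator of Nppa, had 21.8 TPM in replicate 1 and 25.8 TPM in replicate 2. Tbx2 and Tbx3, which repress Nppa in the muscle that does not form chambers, were higher in replicate 1. Tbx2 had 2.75 and 1.13 TPM, a log2 ratio of −1.24, and Tbx3 had 7.81 and 4.92 TPM, a ratio of −0.65. These genes are also expressed in embryonic lung, whose epithelial markers were 959.9 TPM in sum in replicate 1 and 103 TPM in replicate 2, and the part of lung tissue in their ratios was not tested. Over the whole list, 6 of 17 were higher in replicate 2 and the median log2 ratio was −0.12.

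**Figure D5:**
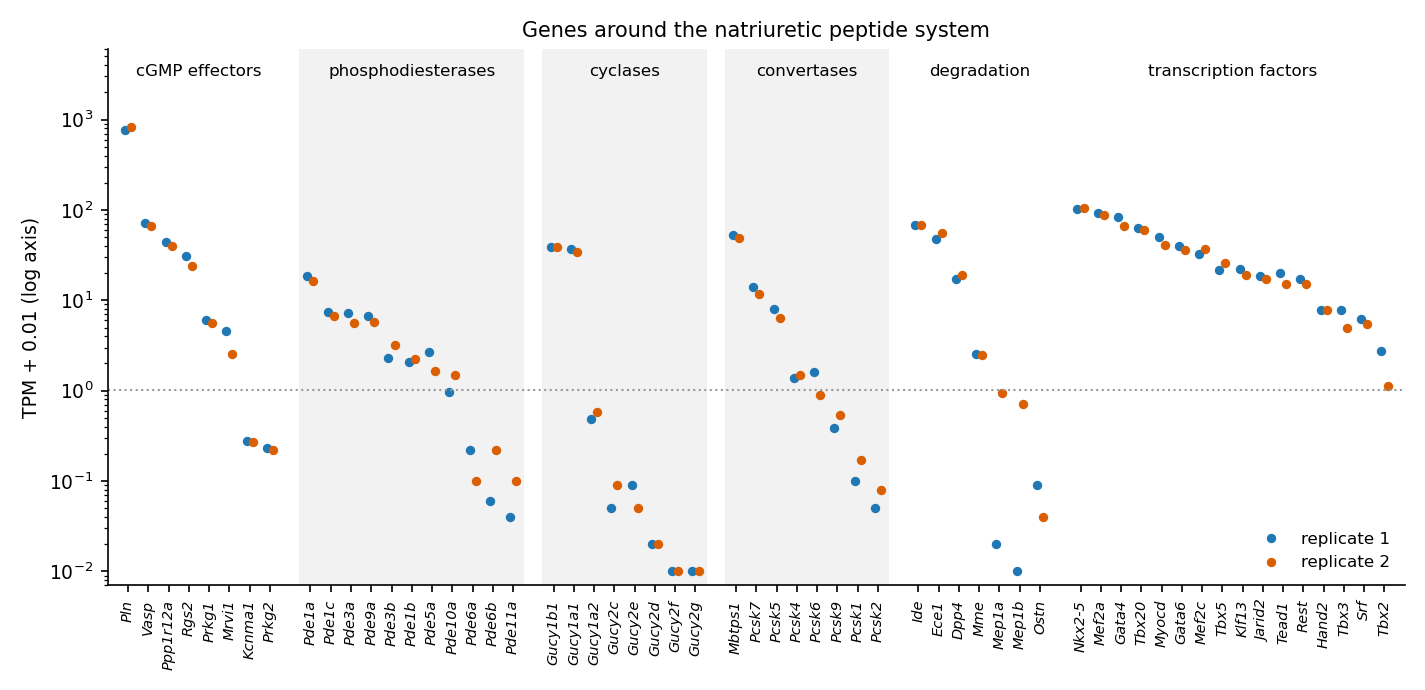
TPM + 0.01, on a log axis, of 58 genes in 6 lists around the natriuretic peptide system, with 1 point for each library and a dotted line at 1 TPM. All 16 transcription factors drawn lie above the line, Pln is highest at 789.5 TPM in the mean, and Mep1a and Mep1b lie far apart between the libraries.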

How the data were processed

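Total RNA of embryonic mouse heart was sequenced in 2 libraries of 1 group. The authors' tables are for build mm10 and annotation M4, per the file headers and accompanying notes, and each holds a single library. The aligner, the quantifier and any use of strand were not given in the sources used here. Deposited tables hold estimated counts, not normalized, and TPM values, which the authors computed over all rows, spike-ins included. For each transcript the deposited values include the percent of the gene's TPM that it holds. Deposited credibility intervals of TPM carry no stated level. FPKM columns were not used.

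Gene names and coordinates came from GENCODE M21 on GRCm38, the assembly of mm10, by identifier without version; 32 of the 33 transcripts had the same length there. Totals were 37160624 and 40360242 estimated counts, of which 36559899 and 38982917 lay on mouse genes and 1.62% and 3.41% on spike-ins. Numeric and spike-in rows stayed out of library sizes. Ratios between libraries used TMM factors (edgeR 4.0.16, R 4.3.3) of 0.995 and 1.00, from genes that reached 10 counts in each library, with 0.5 added to each count. Genes were compared with each other by TPM within a library, and called different where both libraries gave 1 direction and no intervals overlapped. The ratio calculation was run on simulated counts with known folds and counting error only. That run checks the arithmetic and not the spread between pools. With 2 libraries no p-value was computed, and the spread measured is that between these 2, assumed to be separate pools. No molecular identifiers are described, so reads are not taken as independent molecules.

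All 8 genes are named; list members are named by level (up to 3 highest, and those at 0 counts in both), beside neighbours within 50 kb and the 3 genes nearest in level. Some single values and a sequence are not reported here, though list counts and medians include those genes. Any other gene named was chosen after its values were seen. The members and lists were chosen with earlier results of these data known. Alternatives tried were DESeq2 1.42.0 size factors, total counts, other added counts, posterior means, other thresholds and leaving out each library.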

Additional observations from a re-analysis of the deposited data

How the results depend on the processing

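Of 40 values for the comparisons between genes and the counts of genes under alternative settings, 34 stayed within the spread between libraries or, for counts, within 1.5 times. These include the count of genes at 1 TPM in both libraries, which was 8 in place of 7 under 4 settings, where Nppc passed. Some of the 34 could not have come out otherwise. A ratio from 1 of 2 libraries always lies within their SD of the mean. With no gene past 1.5-fold, none can be past a fold of 2, and a count of 7 among 8 genes cannot rise by 1.5 times. The share of 34 in 40 is therefore not a measure of stability. Npr3 over Npr1 turned from a log2 ratio of −1.08 to 0.13 with counts not corrected for length, since the Npr3 transcript is the longer. With the full-length coding transcript only, an alternative chosen after seeing the data, Npr3 over Npr1 was −0.52, Npr2 over Npr1 was −0.99 and Npr3 over Npr2 turned from −0.71 to 0.46. The value of Npr3 could not change in that alternative. Npr2 over Npr1 also moved from −0.38 to −0.27 with posterior mean TPM and to −0.62 with uncorrected counts.

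The log2 ratio of Nppa between the pools ranged from 0.51 to 0.57 over the scalings, that of Furin from −0.44 to −0.40 and that of Npr2 from −0.30 to −0.16. TMM over all genes, added after seeing the data, changed no call of the 8. With posterior mean TPM the main transcript held 62.7% of Furin, 63.5% of Npr1 and 37.0% of Npr2, each lower than by the deposited percent. No paired analysis was possible because the labels give a single group. With 1 library per pool, pool and library preparation cannot be told apart. Depth limits Nppc and the minor transcripts most.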
